A study of Mus musculus with 20 samples.

Results

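The metabolic nuclear receptors and related sensors described here are 10 genes, Nr1i3, Nr1i2, Ahr, Rxra, Nr1h3, Ppard, Pparg, Hnf4a, Nr5a2 and Esrra. They encode transcription factors that sense lipids, bile acids, foreign chemicals or the energy state of the liver. They were chosen by gene symbol, and 10 of 10 had a probe set of their own, out of 18193 genes named on the array. All 10 passed the filter on low signal, as did 12947 genes in all. The RNA came from livers of 20 male BALB/c mice that had arrived at 6 weeks of age, and each mouse had its own Affymetrix array, 5 in every group. The groups were mice injected intraperitoneally with streptozotocin (STZ, which kills pancreatic beta cells) at 185 mg/kg and fed plain AIN93G diet, STZ mice fed that diet with 0.1% phloridzin, STZ mice fed it with 0.5% phloridzin, and untreated mice, which received no injection and ate the plain diet. Phloridzin, a plant glucoside, inhibits the sodium-glucose cotransporters of gut and kidney. The diets lasted 14 days, and the STZ mice entered them with blood glucose of 330 to 590 mg/dL. Because STZ came with an injection and untreated mice had none, the diabetes, the toxin and the injection cannot be told apart.

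Nuclear receptors bind small lipophilic ligands and switch target genes on or off, and many of them, among them the receptors called PXR, CAR, LXR and the PPARs, bind DNA as a pair with the retinoid X receptor (RXR). PXR and CAR induce the enzymes and transporters that clear drugs, steroids and bile acids, LXR responds to oxysterols, PPARs to fatty acids, and HNF4α and LRH-1 keep up hepatocyte, bile acid and cholesterol genes. AHR, the aryl hydrocarbon receptor, is no nuclear receptor but a ligand-activated factor of the bHLH-PAS family, and it is grouped with them here as a sensor of foreign chemicals.

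The results turn above all on 2 genes that were both higher in diabetic liver, Nr1i3 and Nr1i2, so the promoter of each is shown, from 250 bases before to 50 bases after a transcript's start, as given by RefSeq on build GRCm38.p6. Capitals mark the matches, on either strand, to the nuclear receptor core motif AGGTCA, the glucocorticoid receptor core motif AGAACA, the E-box CACGTG and the PAR bZIP site TTATGTAA, motifs that were picked after the values were seen. The Nr1i3 window lies at chr1:171213720-171214019 on the plus strand and the Nr1i2 window at chr16:38294775-38295074 on the minus strand.
Nr1i3: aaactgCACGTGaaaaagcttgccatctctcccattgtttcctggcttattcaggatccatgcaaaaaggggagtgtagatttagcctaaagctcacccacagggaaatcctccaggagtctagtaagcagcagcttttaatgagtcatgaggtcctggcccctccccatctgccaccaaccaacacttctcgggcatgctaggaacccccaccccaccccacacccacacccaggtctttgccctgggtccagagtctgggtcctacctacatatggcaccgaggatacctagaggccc
Nr1i2: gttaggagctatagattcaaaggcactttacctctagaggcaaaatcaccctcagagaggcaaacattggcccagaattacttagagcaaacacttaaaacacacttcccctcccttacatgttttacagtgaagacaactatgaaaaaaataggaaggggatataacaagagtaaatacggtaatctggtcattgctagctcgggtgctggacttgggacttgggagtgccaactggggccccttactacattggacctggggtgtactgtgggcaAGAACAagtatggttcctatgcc
The Nr1i3 window held 1 E-box, whose first base lies 244 bases before the start, and the Nr1i2 window held 1 glucocorticoid receptor core motif downstream of the start, so that the windows share none of these matches. Of 32851 promoter windows in the table, 7.15% held the E-box, 19.0% the glucocorticoid receptor core motif, 16.3% the nuclear receptor core motif and 0.938% the PAR bZIP site. Of the 10 genes, 9 had an entry in this table, and Ahr had none.

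The values are signals on a linear scale, and as deposited their trimmed mean is 100 on each array. Differences are of log2(signal + 16), so a fold is a fold of the signal plus 16 and understates the change of dim genes. The array with the highest median signal had a median of 17.1, and means up to this value, a limit read from the data, are called background here. A gene was called where its limma p, adjusted over all 12947 genes by Benjamini and Hochberg, was under 0.05.

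Some arrays and markers moved with the groups. The bioD spike-in control was at 3097 to 3795 for STZ mice and 3997 to 4794 for untreated mice. It was at 14067 on 0.1% phloridzin replicate 4 against 3173 to 4431 on the other 4 arrays of its group, and hepatocyte markers summed to up to 199449 in that group. STZ replicate 1 had a Cyp4a14 signal of 48.9, against 2710 to 5867 on the other 4 STZ arrays. Hepatocyte markers, 9 of 9 measured, summed to 71311 to 102386 in STZ liver and 97329 to 108439 in untreated liver, with 1 called (Fgb, lower). Sums were lower in STZ than in untreated liver for B and plasma cell markers (87.2 to 159 against 373 to 506, 4 of 5 measured, Cd79a and Cd79b at background) and pancreas markers (415 to 889 against 1462 to 1951, 4 of 6 measured, Cpa1 and Ctrb1 at background). Stellate cell markers, 7 of 7 measured, summed to 1671 to 2626 in STZ liver and 2322 to 3658 in untreated liver, with 3 called lower. Kupffer cell, endothelial, bile duct and T and NK cell sums overlapped between these groups. The Kupffer cell and endothelial lists each had 1 marker called higher, and the others each had 1 called lower. Over all genes, 6.9% were called higher and 6.89% lower in STZ against untreated liver. All 5 T and NK cell markers and 3 of 4 bile duct markers were at background, so their sums say little about these cells. The part of these shifts in the receptor results was not tested, and in whole liver fewer cells of a type and less RNA per cell cannot be told apart.

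In the first comparison, STZ against untreated mice, which asks what diabetes changed in the liver, 3 of the 10 genes were called, each of them higher: Nr1i3, Nr1i2 and Ahr. Over all genes 13.8% were called, 6.9% higher and 6.89% lower. The median difference of the 10 genes was 0.27 log2 units and that of all genes −0.046. An unadjusted p under 0.05 was found for 6 of the 10 genes and for 28.4% of all genes. In Nr1i3, Nr1i2 and Ahr the STZ arrays lay wholly above the untreated arrays, as 6.12% of all genes did. None of the 10 was called lower. Without STZ replicate 1 the same 3 receptor genes, Nr1i3, Nr1i2 and Ahr, were called in STZ against untreated liver, with log2 differences of 0.91, 0.69 and 0.53.

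Nr1i3 (chr1:171213934-171218845) encodes CAR, which induces Cyp2b enzymes in response to phenobarbital-like compounds. Its signal was 791, 849, 1021, 939.8 and 1101 on the 5 STZ arrays, 602, 879, 1043, 1183 and 1012 with 0.1% phloridzin, 1052, 661, 823, 937 and 988 with 0.5% phloridzin, and 491, 535, 498, 587 and 453 in untreated liver. All 15 arrays of diabetic mice lay above all 5 untreated arrays, and the lowest of them, 0.1% phloridzin replicate 1 at 602, came close to the highest untreated array at 587. Group by group, 6.12% of all genes lay wholly above untreated in STZ liver, 6.02% with 0.1% and 5.41% with 0.5% phloridzin. The share of all genes for the 15 arrays at once was not counted. Nr1i3 averaged 940.2 ± 125 in STZ liver, 944 ± 219 with 0.1% phloridzin, 892 ± 154 with 0.5% phloridzin and 513 ± 50.9 in untreated liver (SD, n = 5 each). Nr1i3 rose 1.80-fold in STZ liver (log2 difference 0.85 ± 0.15, SE, limma adjusted p = 0.00123). It had only 1 probe set of its own, so no second probe set checks this value.

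Nr1i2 (chr16:38248349-38294849) encodes PXR, the pregnane X receptor, which induces Cyp3a enzymes in response to steroids and drugs. Its signal was 181, 159, 221, 168 and 229.7 on the STZ arrays, 155, 165, 216, 195 and 224 with 0.1% phloridzin, 225, 129.99, 165, 145 and 201 with 0.5% phloridzin, and 105, 87.4, 125, 135 and 118 in untreated liver. The arrays of STZ mice and of mice given 0.1% phloridzin did not overlap with the untreated arrays, while 0.5% phloridzin replicate 2 was below the highest untreated array. Nr1i2 rose 1.59-fold in STZ liver (0.67 ± 0.15, SE, n = 5 per group, limma adjusted p = 0.00497). Its second probe set, tested among 23016 probe sets, gave a log2 difference of 0.95 ± 0.20 (SE, adjusted p = 0.00462).

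Ahr (chr12:35497979-35534989) had signals of 307, 317, 357, 365 and 324 on the STZ arrays, 285, 359, 291, 336 and 259 with 0.1% phloridzin, 284, 225, 191, 253 and 283 with 0.5% phloridzin, and 209, 200.2, 256, 238 and 251 in untreated liver. The STZ arrays stood above all untreated arrays and above all arrays of the 0.5% group, which in turn mixed with the untreated ones. Ahr rose 1.42-fold in STZ liver (0.51 ± 0.11, SE, n = 5 per group, limma adjusted p = 0.00591). Its second probe set was dim, with means of 24.7 in STZ and 26.2 in untreated liver, and gave −0.027 ± 0.15 (SE, adjusted p = 0.937). With the mean of both probe sets as the gene value the call ended (0.24, adjusted p = 0.108).

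**Figure D1:**
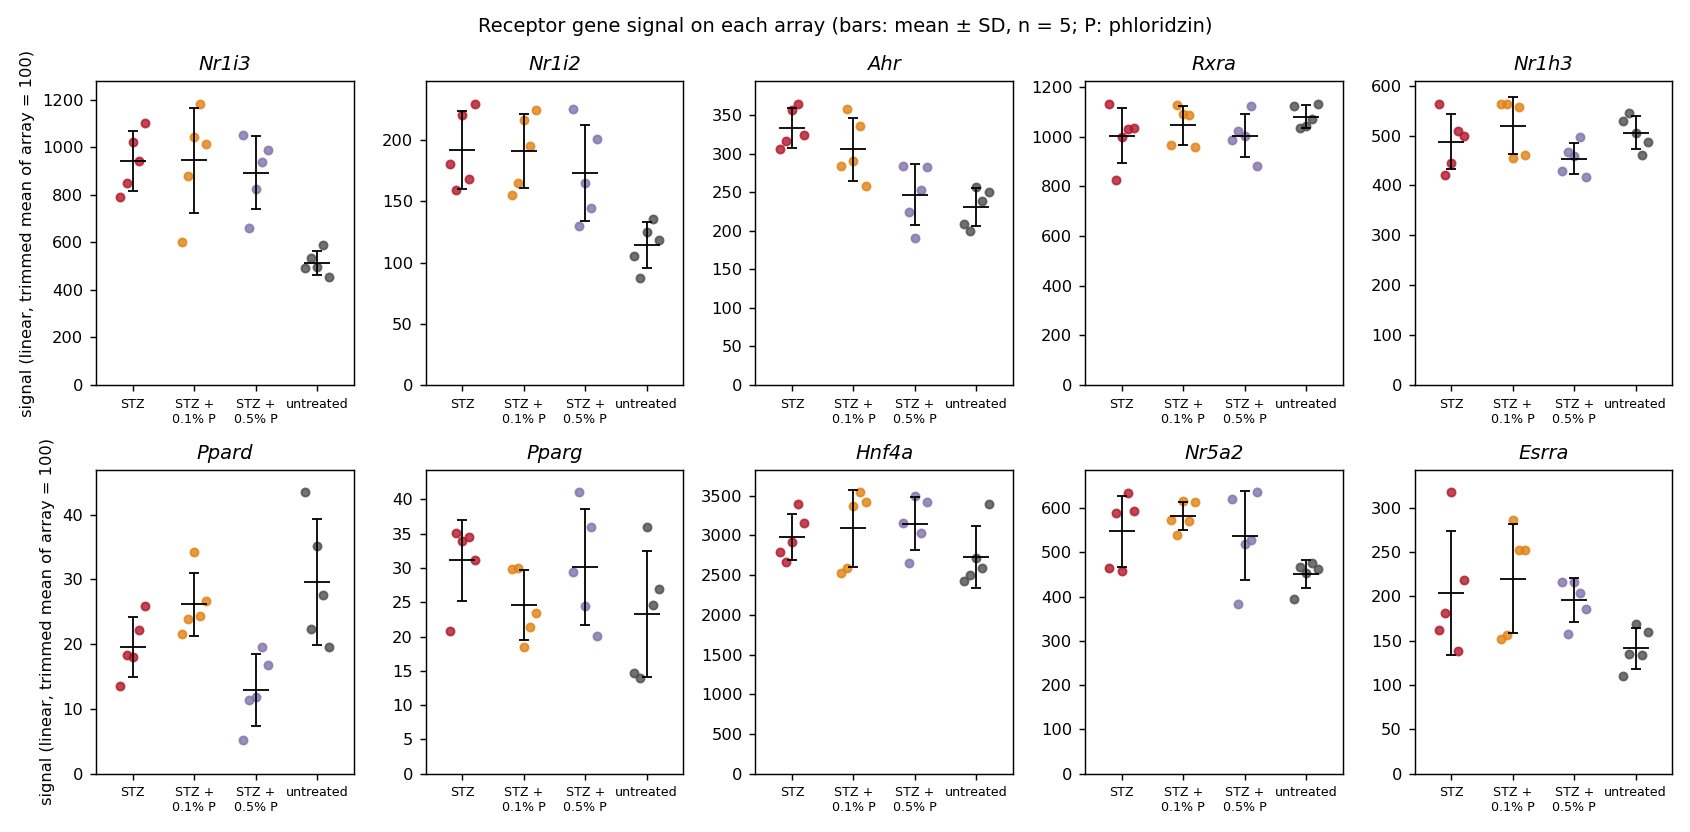
Signal of each of the 10 genes (linear, vertical axis from 0) on each array, by group; points are arrays, in order of replicate number, and bars give the mean ± SD of 5 arrays. Nr1i3 is above its untreated arrays on all 15 arrays of diabetic mice, and the share of all genes that do so was not counted. On the probe set used for the gene, Ahr is high with STZ and close to untreated with 0.5% phloridzin. Rxra, Nr1h3 and Hnf4a overlap in all groups.

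The partners and the remaining sensors did not pass the test in STZ against untreated liver. Rxra (chr2:27676445-27763319), which encodes the shared partner RXRα, ranged over 826 to 1130.3 in STZ liver and 1032 to 1133 in untreated liver, with a difference of −0.11 (95% interval −0.30 to 0.080, limma adjusted p = 0.457). Nr1h3 (chr2:91184061-91202829), which encodes LXRα, ranged over 422 to 563 in STZ liver and 461 to 545 in untreated liver, with a difference of −0.056 (−0.26 to 0.14, adjusted p = 0.751). For both genes the interval excludes a rise as large as that of Ahr, and a difference between the genes was not tested. A second probe set of Rxra averaged 196 ± 44.6 in STZ and 236 ± 41.6 in untreated liver (SD, n = 5 each), with overlapping arrays.

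Ppard (chr17:28232754-28301469), which encodes PPARδ, a fatty acid receptor of many tissues, and Pparg (chr6:115360879-115490404), which encodes PPARγ, the fat cell receptor, were dim. Ppard had signals of 13.6, 18.3, 17.9, 22.1 and 25.8 on STZ arrays, 21.6, 23.9, 34.2, 24.4 and 26.7 with 0.1% phloridzin, 5.14, 11.3, 11.9, 19.6 and 16.7 with 0.5% phloridzin, and 43.4, 22.3, 35.2, 27.6 and 19.6 in untreated liver. The arrays of the 0.5% group were the lowest as a group, and 4 of the 5 lay below the background limit. The difference of STZ against untreated liver was −0.34 (95% interval −0.66 to −0.034, limma adjusted p = 0.132) for Ppard. For Pparg, at 20.8 to 35.1 in STZ liver and 13.9 to 36.0 in untreated liver, it was 0.28 (−0.039 to 0.61, adjusted p = 0.238).

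Hnf4a (chr2:163506811-163572907), which encodes HNF4α, a regulator of many hepatocyte genes, ranged over 2659.9 to 3391 in STZ liver and 2429 to 3398 in untreated liver, with a difference of 0.13 (−0.12 to 0.38, adjusted p = 0.504). Its other 3 probe sets gave 0.14 to 0.30, and none of them was called. Nr5a2 (chr1:136842562-136960448), which encodes LRH-1, ranged over 457 to 634 in STZ liver and 396 to 476 in untreated liver, with a difference of 0.26 (0.0072 to 0.52, adjusted p = 0.163). Its other probe sets above background gave 0.039 and 0.015, and 1 more was at background in both groups (means of 10.4 in STZ and 12.7 in untreated liver). Esrra (chr19:6910977-6922048), which encodes ERRα, a partner of the coactivator PGC-1α in mitochondrial gene control, ranged over 139 to 317 in STZ liver and 109.7 to 169 in untreated liver, with a difference of 0.44 (0.043 to 0.84, adjusted p = 0.133), and with array weights it was called (0.55, limma adjusted p = 0.0285). Its other probe set, at a mean of 14.2 in STZ and 14.0 in untreated liver, was not above background.

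**Figure D2:**
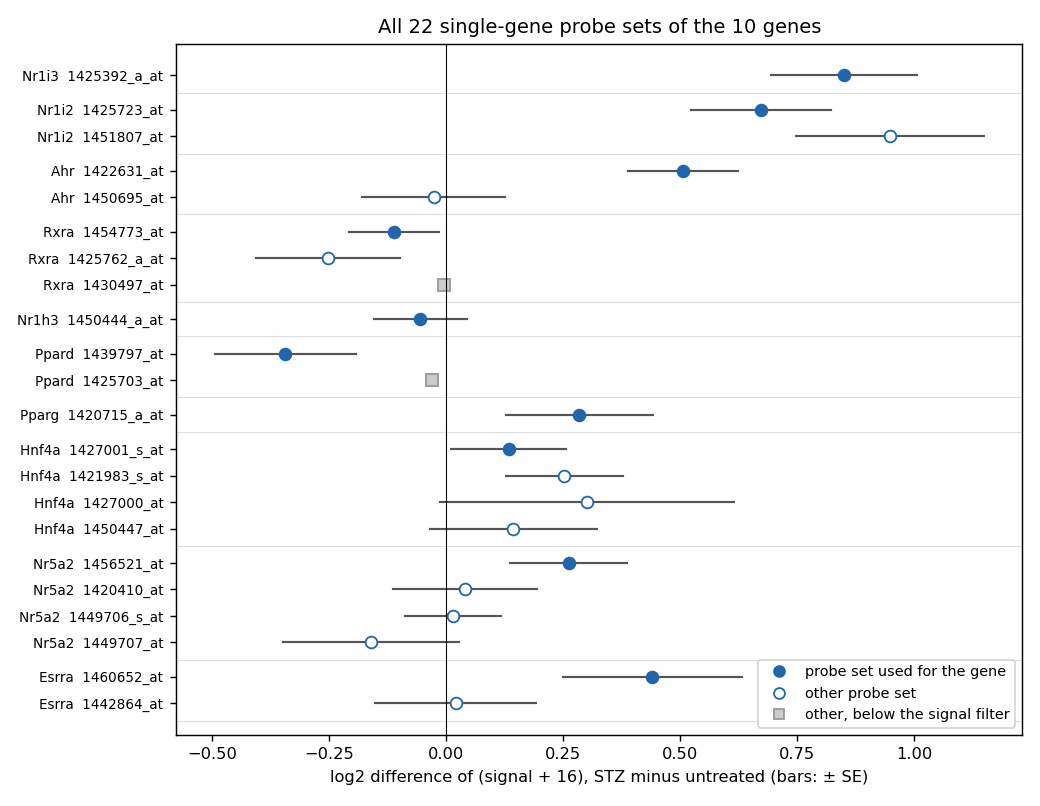
Difference of log2(signal + 16), STZ minus untreated, for the 22 single-gene probe sets of the 10 genes (horizontal axis; bars are ± SE, from a limma fit of 23016 probe sets; grey squares are 2 probe sets below the signal filter, with no test). Both probe sets of Nr1i2 lie to the right of 0, while those of Ahr, Esrra and Nr5a2 differ among themselves.

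The phloridzin comparisons ask whether phloridzin in the diet changed these genes in diabetic liver. Neither dose changed any of the 10 past the threshold, and limma called 0% of all genes at either dose. At an unadjusted p under 0.05 there were 0 of the 10 genes with 0.1% phloridzin and 1 with 0.5% phloridzin, beside 5.29% and 4.8% of all genes. For Nr1i3 the difference was −0.019 (95% interval −0.34 to 0.30, limma adjusted p = 0.996) for 0.1% phloridzin against STZ and −0.083 (−0.41 to 0.24, adjusted p = 0.996) for 0.5%. For Nr1i2 it was −0.0036 (−0.31 to 0.30, adjusted p = 0.999) for 0.1% and −0.15 (−0.45 to 0.16, adjusted p = 0.996) for 0.5%. These intervals do not show that the doses had no effect. For Nr1i2 at the higher dose the interval reaches 0.45 log2 units below STZ. The second probe set of Nr1i2 averaged 200 in STZ liver, 186 with 0.1% and 160 with 0.5% phloridzin, and its arrays overlapped between these groups.

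Ahr was the 1 gene at an unadjusted p under 0.05 for 0.5% phloridzin against STZ. Its signal averaged 247 ± 39.6 with 0.5% phloridzin and 334 ± 25.8 in STZ liver (SD, n = 5 each), the highest array of the 0.5% group (284) was below the lowest STZ array (307), and the log2 difference was −0.42 ± 0.11 (SE). This did not pass the adjustment over all genes (limma adjusted p = 0.859). Groups apart in this direction were found in 0.317% of all genes. With 0.1% phloridzin Ahr averaged 306 ± 40.6 (SD), a difference of −0.13 (95% interval −0.37 to 0.11, limma adjusted p = 0.978) from STZ liver. Its dim second probe set was not lower at either dose. That probe set averaged 24.7 in STZ liver, 35.3 with 0.1% and 25.6 with 0.5% phloridzin.

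None of the other receptors differed from STZ liver past the threshold at either dose. Over all 10 genes the 95% intervals ran from −0.54 to 0.56 with 0.1% phloridzin and from −0.66 to 0.39 with 0.5%. Median differences of the 10 were 0.052 and −0.060, beside −0.0039 and 0.021 for all genes. Rxra ranged over 958 to 1126 with 0.1% phloridzin and 881 to 1122 with 0.5%, and differed from STZ by 0.062 and 0.0030. Its second probe set averaged 220 with 0.1% and 241 with 0.5% phloridzin, and 196 in STZ liver. Nr1h3 ranged over 455 to 564 with 0.1% and 418 to 498 with 0.5%, and differed by 0.091 and −0.095. Hnf4a differed by 0.041 and 0.077, Nr5a2 by 0.097 and −0.034 and Esrra by 0.11 and −0.0086. All of these arrays overlapped with those of STZ mice. Pparg, at 18.5 to 29.9 with 0.1% and 20.04 to 41.0 with 0.5% phloridzin, differed by −0.21 and −0.038.

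Between the doses, 0.5% against 0.1% phloridzin, limma called 0% of all genes and none of the 10, and 2 of the 10 had an unadjusted p under 0.05, beside 6.49% of all genes. Ppard averaged 12.9 ± 5.56 with 0.5% and 26.2 ± 4.86 with 0.1% phloridzin (SD, n = 5 each), and the arrays of these groups did not overlap, as in 0.224% of all genes in this direction. The difference did not pass the test (limma adjusted p = 0.753), and its size is not given because the mean of the 0.5% group was below the background limit. Ahr differed by −0.29 ± 0.11 (SE, limma adjusted p = 0.753).

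**Figure D3:**
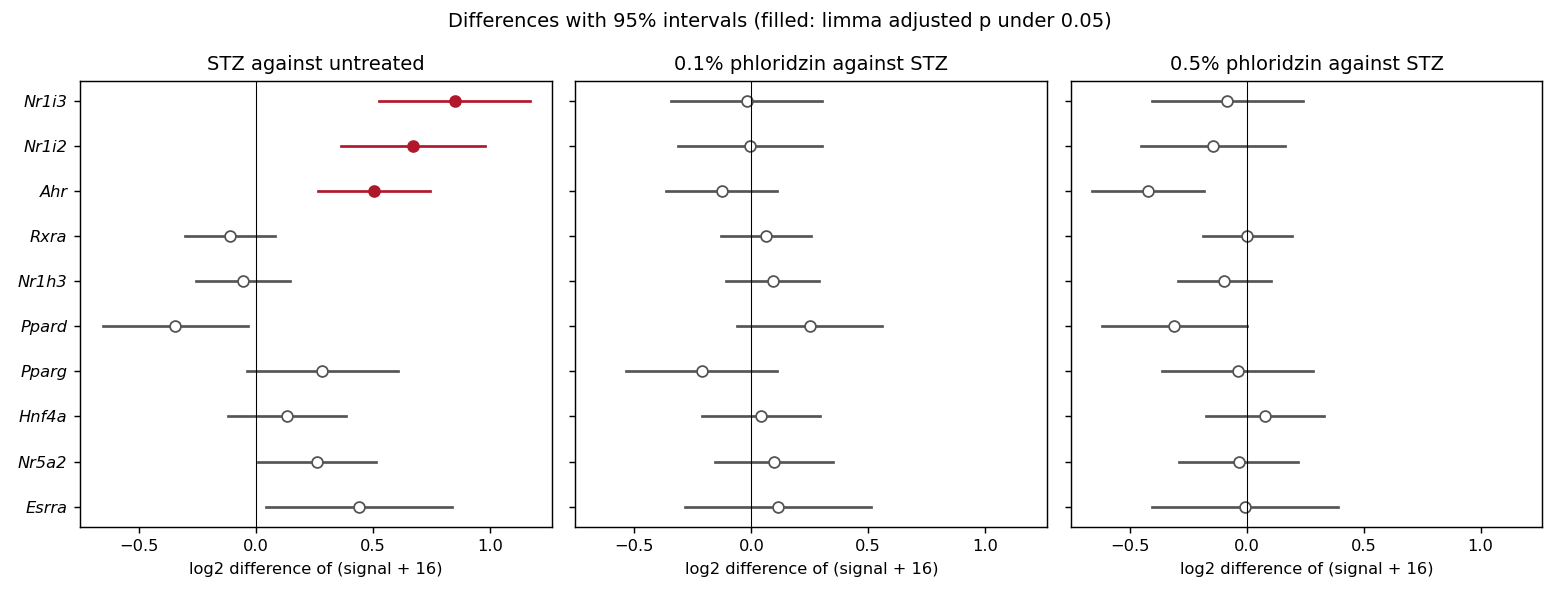
Difference of log2(signal + 16) with its 95% interval for each gene in STZ against untreated, 0.1% phloridzin against STZ and 0.5% phloridzin against STZ (horizontal axis; filled points have a limma adjusted p under 0.05). Nr1i3, Nr1i2 and Ahr are filled in the first panel, and no gene is filled in the other panels.

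Set against untreated liver, the phloridzin groups were also high in Nr1i3 and Nr1i2. These comparisons share the untreated arrays with the first one, so their values stand side by side and are not independent of it. With 0.1% phloridzin, 4 of the 10 genes were called, beside 16.7% of all genes (7.76% higher), and each was higher: Nr1i3 (log2 difference 0.83 ± 0.15, adjusted p = 0.00134), Nr1i2 (0.67 ± 0.15, adjusted p = 0.00445), Ahr (0.38 ± 0.11, adjusted p = 0.0273) and Nr5a2 (0.36 ± 0.12, adjusted p = 0.0485). In these 4 genes the arrays did not overlap with the untreated ones, as in 6.02% of all genes in this direction. The calls of Ahr and Nr5a2 ended without 0.1% phloridzin replicate 4, at limma adjusted p of 0.0679 and 0.0748, and likewise without untreated replicate 1 or 2, which left 2 called genes each time. The Ahr call also ended without 0.1% phloridzin replicate 2 (0.0687), and the Nr5a2 call held in 4 of 11 other settings and with 6 of 20 arrays left out (limma adjusted p = 0.609 with the mean of its probe sets). Esrra was just short of a call (0.55 ± 0.19, limma adjusted p = 0.0516) and was called in 5 of 11 other settings and with 5 of 20 arrays left out, at adjusted p of 0.0167 to 0.200 over the other settings.

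With 0.5% phloridzin, 3 of the 10 genes were called against untreated liver, beside 12.7% of all genes (6.53% higher, 6.18% lower). Nr1i3 was higher by 0.77 ± 0.15 (adjusted p = 0.00307) and Nr1i2 by 0.53 ± 0.15 (adjusted p = 0.0240). Of these only the Nr1i3 arrays lay wholly above the untreated arrays, as in 5.41% of all genes. The Nr1i2 call ended without untreated replicate 1 or 2 or without 0.5% phloridzin replicate 1 or 5, at limma adjusted p of 0.0580, 0.0694, 0.0834 and 0.0732. Ppard was lower, at a mean signal of 12.9 ± 5.56 with 0.5% phloridzin and 29.6 ± 9.74 in untreated liver (SD, n = 5 each, adjusted p = 0.00681). No fold is given for Ppard because the lower mean is not above background. Ahr differed from untreated liver by 0.084 (95% interval −0.15 to 0.32, adjusted p = 0.692). Over the 4 groups together, the limma F test called 4 of the 10 genes (Nr1i3, Nr1i2, Ahr and Ppard), beside 12.9% of all genes.

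Among the 15 arrays of diabetic mice, Nr1i3 and Nr1i2 tended to be high in the same mice, which passed the adjustment over all pairs by rank but not by Pearson's r. After removal of group means, Pearson's r was 0.758 (permutation p = 0.00142, adjusted p = 0.0639 over the 45 pairs of the 10 genes) and Spearman's rho 0.818 (permutation p = 0.00093, adjusted p = 0.042), two-sided, with 100000 permutations within groups. Without the 2 arrays farthest from the median of Nr1i2, r was 0.682. Of the 45 pairs, 0 had an adjusted p under 0.05 by Pearson's r. The next 3 pairs were Nr1i2 with Esrra (r = 0.696), Nr1i3 with Hnf4a (0.748) and Nr1i3 with Esrra (0.667), each at an adjusted p of 0.0657. Both genes of a pair were read from 1 array: the correlation with the array's median signal was 0.063 for Nr1i2 and −0.071 for Nr1i3, and that with the bioD spike-in control 0.016 and 0.42. The part of the array in these correlations was not tested.

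**Figure D4:**
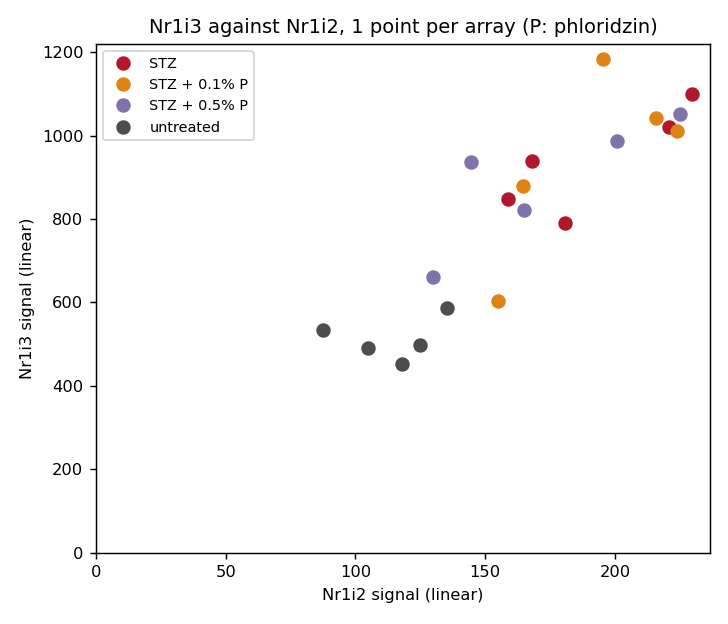
Signal of Nr1i3 (vertical axis) against that of Nr1i2 (horizontal axis), both linear, with 1 point per array, coloured by group. The 5 untreated arrays lie at the lower left, at or below an Nr1i2 signal of 135 and an Nr1i3 signal of 587, and within the diabetic groups arrays high in one gene tend to be high in the other.

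By Pearson correlation over all 20 arrays, group differences included, the genes most like Nr1i3 were Cbr1 (r = 0.96), a carbonyl reductase, Gpt (0.95), alanine aminotransferase, and Acot4 (0.95), an acyl-CoA thioesterase. Those most like Nr1i2 were Pitpnc1, Gpat4 and Trim24 (0.93 each), and those most like Ahr were Tgds (0.84), Il17rb (0.79) and Ppm1k (0.77). These are descriptions of 20 arrays that share group and array.

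Target genes of CAR and PXR were measured beside the receptors. Counts of targets, partners, coregulators and other receptors are of listed genes that passed the filter on low signal. For cell type markers, measured means having a probe set. Of 16 measured targets, 7 rose, 2 fell and 7 did not pass the test in STZ against untreated liver. Over all genes, 6.9% were called higher and 6.89% lower. The median difference of the targets was 0.57 log2 units, beside −0.046 for all genes. Ephx1, microsomal epoxide hydrolase, averaged 3935 ± 385 in STZ liver and 1646 ± 149.7 in untreated liver (SD, n = 5 each) and rose 2.38-fold (adjusted p = 1.24e-07). Slco1a4, a transporter of bile acids and other organic anions, averaged 1185 ± 527 in STZ and 99.6 ± 47.7 in untreated liver and rose 9.77-fold (adjusted p = 8.10e-05). Alas1, the first enzyme of haem synthesis, rose 5.29-fold (adjusted p = 0.00557). Abcb1a, a drug efflux pump, had 79.8 ± 18.0 in STZ liver and 16.3 ± 5.47 in untreated liver (adjusted p = 0.000136), the untreated mean not above background.

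Other CAR and PXR targets, named after their values were seen, went both ways. The classical CAR target Cyp2b10 averaged 153 ± 121 in STZ liver and 16.1 ± 4.94 in untreated liver (SD, n = 5 each, limma adjusted p = 0.0247), and the conjugate exporter Abcc3 rose 2.41-fold (adjusted p = 0.0082). Of the genes that fell, Cyp2c29 averaged 6996 in STZ liver and 10563 in untreated liver (adjusted p = 0.0233), and Cyp2c55 15.8 in STZ and 28.1 in untreated liver (adjusted p = 0.0261). The STZ mean of Cyp2c55 and the untreated mean of Cyp2b10 are not above background. Enzymes of the Cyp2b and Cyp2c families have close relatives, and cross-hybridisation of their probes was not tested. No target was called for either phloridzin dose against STZ, where the list medians were 0.23 for 0.1% and 0.10 for 0.5%. Against untreated liver, 10 targets were higher and 0 lower with 0.1% phloridzin (6 higher without its replicate 4), beside 7.76% higher over all genes, and 7 were higher and 0 lower with 0.5%, beside 6.53% higher and 6.18% lower.

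Targets and partners of AHR showed no common direction. Of 8 targets with a probe set, 6 passed the filter. Of these 6, 2 rose and 1 fell in STZ against untreated liver, beside 6.9% and 6.89% of all genes (list median 0.028). Nqo1, a quinone reductase, rose 2.02-fold (69.0 ± 21.6 in STZ and 25.0 ± 4.23 in untreated liver, SD, n = 5 each, limma adjusted p = 0.00519), and Xdh, xanthine dehydrogenase, 1.40-fold (adjusted p = 0.0467). Cyp1a2, a textbook AHR target, fell by 0.49 log2 units (3194 ± 522 in STZ and 4463 ± 373 in untreated liver, adjusted p = 0.0344). Cyp1a1, another such target, had 24.2 ± 6.65 in STZ and 27.5 ± 6.84 in untreated liver (adjusted p = 0.691). The list held 2 called genes, not 3, without STZ replicate 1 and without 0.1% phloridzin replicate 4. Of the 2 measured partners, the DNA-binding partner Arnt (−0.087, limma adjusted p = 0.756) and the chaperone Hsp90aa1 (−0.57, 0.167), 0 were called, and Hsp90aa1 was called lower with 0.5% phloridzin against untreated liver (−0.83, limma adjusted p = 0.0483), a call that ended without STZ replicate 1 or 0.1% phloridzin replicate 4. Against untreated liver Xdh was the AHR target with the smallest p with 0.1% phloridzin (0.69, limma adjusted p = 0.00616), and Nqo1 with 0.5% (0.76, 0.0309).

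LXR and LRH-1 share targets in bile acid and sterol handling. Of 12 LXR targets, 3 rose and 2 fell in STZ against untreated liver (median −0.12), beside 6.9% and 6.89% of all genes. Of 7 LRH-1 targets, 4 rose and 0 fell (median 0.72), and 3 genes were in both lists. Cyp7a1, the rate-limiting enzyme of bile acid synthesis, averaged 1038 ± 384 in STZ and 112 ± 45.1 in untreated liver (SD, n = 5 each) and rose 8.38-fold (adjusted p = 0.000354). Abcg5 and Abcg8, which together form a sterol exporter, rose 1.79-fold and 1.65-fold (adjusted p = 0.000186 and 0.00103), and the kinase gene Plk3 2.99-fold (adjusted p = 0.0162). Of the LXR targets that fell, Scd1, stearoyl-CoA desaturase, had 4256 ± 4810 in STZ and 12210 ± 966 in untreated liver (adjusted p = 0.0255), and Abca1, the cholesterol exporter, fell by 0.36 log2 units (adjusted p = 0.0267). Nr0b2, the repressor SHP, had 1140 ± 189 in STZ and 1448 ± 188 in untreated liver (adjusted p = 0.223).

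PPAR targets were called more on the higher side. Of 14 targets of PPARα and PPARδ, 6 rose and 1 fell in STZ against untreated liver (median 0.37), beside 6.9% and 6.89% of all genes. Cyp4a14, a fatty acid hydroxylase, averaged 3169 ± 2170.5 in STZ liver, with replicate 1 far below the others, against a mean of 14.4 in untreated liver (adjusted p = 0.000251). The carnitine palmitoyltransferases Cpt1a and Cpt2, which carry fatty acids into mitochondria, rose 1.63-fold and 1.61-fold, and the hormone gene Fgf21 fell by 1.96 log2 units (adjusted p = 0.000748). Ppara, the receptor that most of these genes answer to in liver, had 1049.8 ± 77.5 in STZ and 1112 ± 98.8 in untreated liver (SD, n = 5 each, limma adjusted p = 0.643). Of 6 targets of PPARγ, 2 rose and 0 fell (median 0.44): Cd36, a fatty acid transporter, rose 4.51-fold (451 ± 131 in STZ and 86.2 ± 25.0 in untreated liver, adjusted p = 1.57e-06), and the lipid droplet gene Cidec had 19.8 in STZ and 9.12 in untreated liver (adjusted p = 0.0201). The untreated means of Cidec and Cyp4a14 are not above background. Markers of fat cells were at background in every group: Adipoq, Lep and Retn together summed to 10.2 to 34.7 in STZ liver and 4.75 to 20.3 in untreated liver, with 3 of 3 measured markers below the limit.

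Lists of HNF4α and ERRα targets were mixed. Of 14 HNF4α targets, 1 rose and 2 fell in STZ against untreated liver (median −0.071), beside 6.9% and 6.89% of all genes: the glucose transporter gene Slc2a2 rose 1.29-fold (adjusted p = 0.00273), Mttp, which loads lipoproteins, fell by 0.41 and Pklr, the liver pyruvate kinase, by 1.24 log2 units (adjusted p = 0.0298 and 0.0326). Of 12 targets of ERRα and PGC-1, 2 rose (Idh3a 1.49-fold, Acadm 1.29-fold) and citrate synthase, Cs, fell by 0.75 log2 units (adjusted p = 0.00541), with a median of 0.075. Sdhb, a subunit of succinate dehydrogenase, was higher with 0.1% phloridzin than in untreated liver (0.35, limma adjusted p = 0.0213), where no target was called without 0.1% phloridzin replicate 4. Of 15 measured coregulators, the PGC-1 coactivator genes Ppargc1a and Ppargc1b rose 2.76-fold and 1.67-fold (adjusted p = 0.00265 and 0.00407), and Tbl1xr1, part of a corepressor complex, fell by 0.46 log2 units. Against untreated liver, Ppargc1b also rose with 0.1% and 0.5% phloridzin (log2 differences 0.68 and 0.92).

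**Figure D5:**
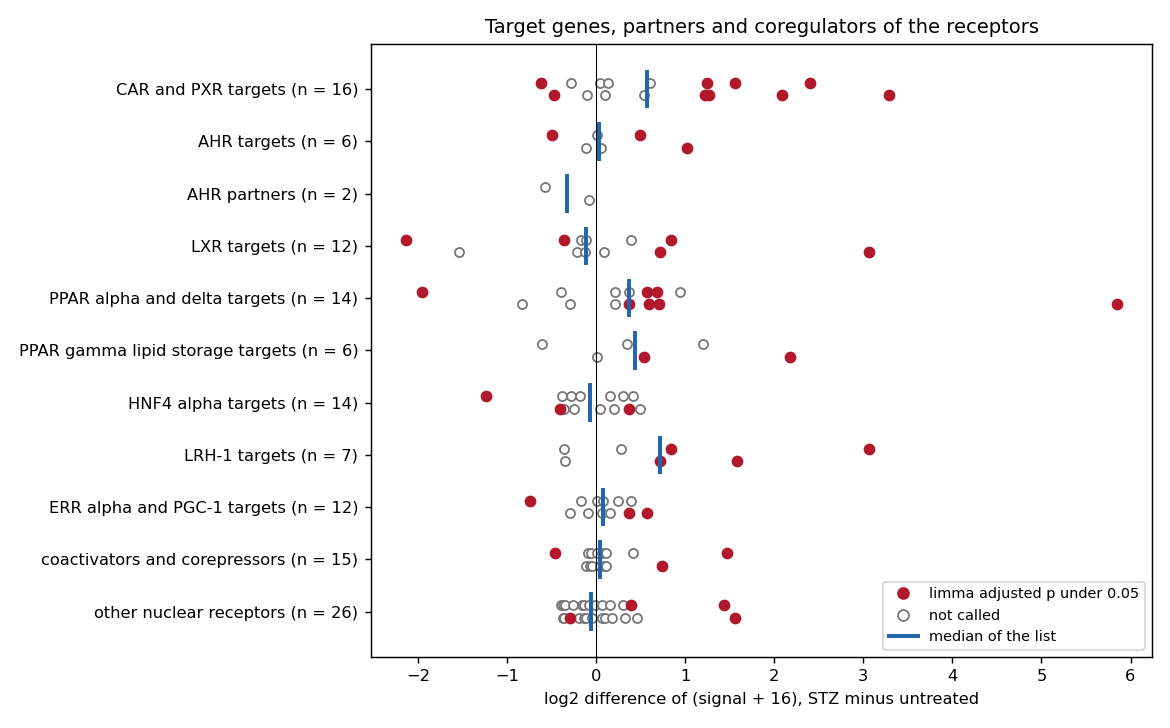
Difference of log2(signal + 16), STZ minus untreated, for each measured gene of the lists of targets, partners, coregulators and other nuclear receptors (horizontal axis; filled points have a limma adjusted p under 0.05, blue bars are list medians). The medians lie between −0.33 (AHR partners) and 0.72 (LRH-1 targets), and filled points lie on both sides of 0 in every list but those of PPARγ targets, LRH-1 targets and AHR partners.

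Of 35 other nuclear receptor genes with a probe set, 26 passed the filter. Of these 26, 3 rose and 1 fell in STZ against untreated liver, with a median of −0.063, beside 6.9% and 6.89% of all genes, so the share called is near that of all genes. Nr1d2, the clock repressor REV-ERBβ, averaged 1724 ± 176 in STZ and 629 ± 61.9 in untreated liver (SD, n = 5 each) and rose 2.70-fold (adjusted p = 2.47e-06). Nr4a1, an early response receptor, rose 2.95-fold (adjusted p = 0.00889) and Nr1h4, the bile acid receptor FXR, 1.31-fold (adjusted p = 0.0214). Nr2c2 fell by 0.30 log2 units (adjusted p = 0.0323). Without STZ replicate 1, 4 rose and 0 fell.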

How the data were processed

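Total RNA of mouse liver was hybridised to Affymetrix arrays, 1 per mouse, with 5 of the 6 mice of each group. The deposited values are intensity values, a linear signal per probe set, and on every array their mean without the lowest and highest 2% of probe sets is 100, as checked on the values. How they were summarised from the probes is not stated in the labels or headers. From 45101 probe sets, 64 controls, 9160 with no listed gene and 932 with several genes were left out, and 34945 named 18193 genes. Entrez identifiers of 34741 were found in the RefSeq gene table, and 0 symbols changed.

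The log2 of signal plus 16 was taken, each gene was read from its probe set with the highest mean, and genes below a signal of 8.48, the 40th percentile over probe sets, were dropped. The 4 groups of 5 arrays entered 1 linear model in limma 3.58.1 under R 4.3.3 (lmFit and eBayes, two-sided tests, 16 residual and 4.56 prior degrees of freedom) over 12947 genes, with p-values adjusted by Benjamini and Hochberg. Precision is set by the number of arrays, and 95% intervals of a difference had a median reach of 0.30 log2 units to each side. Correlations used numpy 2.4.6 and scipy 1.17.1 and figures matplotlib 3.10.9. The fit was tested on simulated data.

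The 10 genes and the lists (receptor targets, partners, coregulators, other nuclear receptors and cell type markers) were chosen with earlier results of these data known. The text names all 10 genes, of each list the called genes with the 4 smallest p in STZ against untreated, the called gene with the smallest p in each other comparison where it was not described already, and the 3 genes most like each receptor gene called. Others are named after their values were seen: Cyp2b10, Abcc3, Cyp2c29, Cyp2c55, Cyp1a1, Arnt, Abca1, Nr0b2, Ppara and the cell type markers. Alternatives in normalization, filter, probe set, pseudocount, samples, weights, prior and replicate block were tried.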

Additional observations from a re-analysis of the deposited data

Results flagged for a closer look

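In groups of 5 arrays, the highest or lowest array was tested for its gap to the nearest other array as a share of the group's range (Dixon's ratio, 95% critical value 0.71). Of 40 pairs of a gene and a group, 2 passed, and chance passes about 1 in 20. Pparg in STZ replicate 1 had a ratio of 0.750, at a signal of 20.8, below the other 4 STZ arrays. Nr5a2 in untreated replicate 1 had a ratio of 0.744, at a signal of 396, below the other 4 untreated arrays.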

How the results depend on the processing

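The calls of Nr1i3 and Nr1i2 in STZ against untreated liver held in 11 of 11 other settings and with each of the 20 arrays left out. Log2 differences were 0.82 to 0.93 and 0.67 to 0.81 in the other settings, and limma adjusted p was 0.0184 at most. Nr1i3 had only 1 single-gene probe set, so the settings on probe sets could not change its difference. For both genes, the filter, prior, replicate block and left-out phloridzin arrays could change the p-value but not the difference. The call of Ahr held in 10 of 11 and ended with the mean of probe sets (adjusted p = 0.108). The list counts without STZ replicate 1 and without 0.1% phloridzin replicate 4 were chosen after seeing the data. The stricter filter dropped Ppard, which then had no value. Over 1854 values of the 10 genes under all alternatives, 1774 kept their call and direction or, for the most part, stayed uncalled, 30 lost and 13 gained a call, and 37 changed sign, of which 0 were called in either fit. The genes called in STZ against untreated numbered 2851 with array weights and 1171 to 1991 with an array left out (1171 without STZ replicate 5). In 0.5% phloridzin against untreated they numbered 2610 with array weights and 944 to 2188 with an array left out (944, 980 and 1084 without 0.5% phloridzin replicate 1, 0.5% phloridzin replicate 5 and untreated replicate 1). In 0.1% phloridzin against untreated 2 to 5 of the 10 genes were called with an array left out. Median centring moved the calls in STZ against untreated to 1138 higher and 509 lower and quantile normalization to 1004 and 814, against 893 and 892. Replicate numbers marked different mice: over 30 pairs of arrays with the same number, deviations from group means correlated at −0.41 to 0.50, with 13 over 0.1. Of 120 pairs of arrays with unlike numbers and groups, 31 were over 0.1. With the replicate block 1923 genes and 3 of the 10 were called in STZ against untreated, Nr5a2 lost its call in 0.1% phloridzin against untreated (adjusted p = 0.0515) and Esrra gained one (0.0167), as it did in 4 further settings.

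The cause of the changes of sign was not tested. For 0.1% phloridzin against STZ, Nr1i2 was 0.0032 and Hnf4a −0.036 with quantile normalization, and Ahr 0.11 with the mean of probe sets. For 0.5% phloridzin against STZ, Rxra was −0.056 with median centring and Nr5a2 0.0064 with array weights. Nr1h3 was 0.024 in STZ against untreated with median centring, and Nr5a2, at 0.23 in 0.5% phloridzin against untreated, was −0.012 with the mean of probe sets. With an array left out, 0.1% phloridzin against STZ gave −0.062 to 0.062 for Nr1i2, −0.11 to 0.13 for Nr1i3, −0.0049 to 0.11 for Rxra, −0.00019 to 0.28 for Esrra and −0.012 to 0.11 for Hnf4a. For 0.5% phloridzin against STZ it gave −0.15 to 0.019 for Nr1i3, −0.12 to 0.047 for Pparg, −0.064 to 0.048 for Rxra, −0.12 to 0.16 for Esrra and −0.10 to 0.078 for Nr5a2. For 0.5% against 0.1% phloridzin it gave −0.21 to 0.038 for Nr1i3 and −0.033 to 0.10 for Hnf4a, and for 0.1% phloridzin against untreated −0.18 to 0.0062 for Ppard and −0.017 to 0.18 for Pparg. Ppard and Pparg are close to background, which limits what their signals can show.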
